A study of Mus musculus with 24 samples.

Results

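The transcripts described here are those of 10 autophagy genes with a known link to p53, namely Ulk1, Ulk2, Atg4a, Atg4c, Atg7, Atg10, Dram1, Dram2, Uvrag and Vmp1. They were taken by gene symbol from the 21671 genes of each RNA-Seq file, and all 10 were found and passed the filter on low values in every fit. The study asked which genes respond to whole-body ionizing radiation (IR) in the mouse spleen, and which of them need p53 to do so. The 24 samples were splenic B cells, enriched with magnetic beads against B220, and the cells that the beads left behind (non-B cells), from C57/Bl6 mice of 8 weeks of age. Each cell type was taken from Trp53+/+ (wild-type) and Trp53-/- (null, carrying a p53 knock-out allele) mice, either untreated (mock) or 4 h after 7 Gy, which makes 8 groups, those of the wild type with 4 and those of the null genotype with 2 samples. These equal the numbers of mice per condition in the study's methods, but no label ties a sample to one animal, and p-values measure the spread between these samples. Since the RNA came from whole cell populations, fewer cells of a type and less RNA per cell cannot be told apart.

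Autophagy delivers cytoplasmic material to lysosomes inside a double membrane. Its start is signalled by the ULK kinases, the membrane grows with the help of a lipid kinase complex and of transmembrane proteins, and ubiquitin-like proteins of the Atg8 family are attached to it by a chain of conjugating enzymes. The transcription factor p53, stabilised by DNA damage, is known to activate several of these genes, and Dram1 owes its name to that property (DNA damage-regulated autophagy modulator).

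The labels were checked first. Cdkn1a, a cell cycle inhibitor and p53 target, rose in wild-type B cells from a mean RPKM (reads per kilobase of transcript scaled to the reads on exons) of 1.08 to 89.5 and in wild-type non-B cells from 4.57 to 77.3, whereas the irradiated null samples lay at 0.644 and 2.53. Mdm2, the ubiquitin ligase that restrains p53, stood at 99.1 and 72.7 in the irradiated wild-type B and non-B cells and at 27.3 and 29.8 in the null ones. Trp53 reads remained in null cells. The mean RPKM of Trp53 was 46.2 in mock wild-type and 21.6 in mock null B cells (log2 difference -1.08, limma adjusted p = 8.6e-06), and 46.6 and 24.5 in mock non-B cells (-0.91, limma adjusted p = 0.00092). Irradiated B cells had a mean of 61.8 in the wild type and 41.2 in null cells, and irradiated non-B cells 36.9 and 35.5. Since the deleted stretch is not given in the sources used here, reads outside it cannot be set apart, and Trp53 was not used as a check. The summed RPKM of 8 B cell markers lay between 840.3 and 1104 in B cell samples and between 206 and 579.7 in non-B samples, so that B cell transcripts were not absent from the latter, and that of 8 T cell markers between 41.9 and 79.4 in B and between 301.5 and 651.3 in non-B samples. The estimated depth was 4.62 to 10.98 M (mega) reads on exons. In wild-type B cells it was 4.62 to 7.61 M after IR and 7.48 to 10.16 M in mock samples. Null B cells had 8.68 to 9.24 M and 8.64 to 9.05 M. The part of depth in the B cell responses was not tested. In 6 of the 8 irradiated wild-type libraries, over 15% of 1409 olfactory and vomeronasal receptor genes, which are known from sensory tissue, had a value above 0 (15.8% to 51.2%), against 5.25% to 9.08% of them in mock libraries and at most 12.99% in irradiated null ones. Without these 6 libraries, 1 irradiated wild-type library is left per cell type, and its spread is assumed to be that of the other samples. Differences printed here for a member that lost or gained a call, or moved by over 1.5 times, in that fit are given with its value.

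To show what the p53 response element looks like near the members, the window from 5000 bases before to 2000 bases after each gene's start was searched in the mm9 genome, on both strands, for 2 adjacent half-sites of 10 bases, each with a core that opens with C, closes with G and holds A or T at both places between, and with up to 3 mismatches in the other 12 letters. The match at Cdkn1a is shown for comparison, with the cores in capitals and each written along the strand of its gene.
Cdkn1a, chr17:29227873-29227892, plus strand, 1 mismatch: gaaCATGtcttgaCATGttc
Ulk1, chr5:111243279-111243298, minus strand, 2 mismatches: gtaCATGcctcaaCATGtcc
Uvrag, chr7:106291291-106291310, minus strand, 3 mismatches: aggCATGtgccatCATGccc
Vmp1, chr11:86495396-86495415, minus strand, 3 mismatches: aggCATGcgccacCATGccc

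Counted from the annotated start of the gene, with upstream as negative, the Ulk1 match was centred at -4173 bases and the Uvrag match at -1647 bases, both outside annotated genes, and the Vmp1 match lay at 1932 bases, in an intron of Vmp1. With up to 1, 2 and 3 mismatches, 0, 1 and 3 of the 10 members held a match, where 0.98%, 4.36% and 17.2% of 19743 such windows did. A match is a resemblance in letters and says nothing of binding. Closer to the start, the promoters of the kinase pair, which responded differently in B cells, are shown from 250 bases before to 50 bases after the start (RefSeq, GRCm38.p6), with any single half-site of at most 1 mismatch in capitals.
Ulk1, chr5:110810032-110810331, minus strand: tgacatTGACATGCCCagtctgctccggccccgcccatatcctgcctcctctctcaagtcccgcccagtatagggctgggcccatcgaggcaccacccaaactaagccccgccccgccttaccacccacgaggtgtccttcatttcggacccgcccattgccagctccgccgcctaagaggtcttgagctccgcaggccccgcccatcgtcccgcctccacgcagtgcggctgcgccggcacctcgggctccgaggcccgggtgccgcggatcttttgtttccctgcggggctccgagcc
Ulk2, chr11:61855043-61855342, minus strand: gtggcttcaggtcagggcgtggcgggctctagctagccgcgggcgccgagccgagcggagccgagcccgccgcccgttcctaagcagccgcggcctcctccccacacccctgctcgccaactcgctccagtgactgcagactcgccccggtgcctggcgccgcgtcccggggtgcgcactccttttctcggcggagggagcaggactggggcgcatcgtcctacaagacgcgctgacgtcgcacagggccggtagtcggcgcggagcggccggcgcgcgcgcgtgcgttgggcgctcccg

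The Ulk1 promoter held 1 half-site and the Ulk2 promoter none. Of the 14 RefSeq promoters of the 10 members, 7 held at least 1, and 39.6% of 32851 promoters did. The 7 belonged to Ulk1, Dram2, Atg4a, Atg4c, Atg7, Atg10 and Vmp1. Half-sites thus stood at members that rose, that fell and that were not called in wild-type B cells.

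In wild-type B cells, 3 of the 10 members passed the test after IR. Ulk1 rose, and Ulk2 and Dram2 fell. A gene was called when limma's Benjamini-Hochberg adjusted p was under 0.05 and its log2 difference, on the scale of log2(RPKM + 0.5), was above 0.58 in size. Of the 13821 genes tested in B cells, 24.7% were called (12.5% higher and 12.2% lower), so that the share of members called was close to that of all genes. The median log2 difference was -0.18 over the members and 0.01 over all genes. Among wild-type non-B cells, Ulk1 alone was called, where 9.85% of 14018 genes were (5.74% higher and 4.11% lower), and the medians were 0.13 and -0.03. The plot of RPKM by sample shows all members together.

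**Figure D1:**
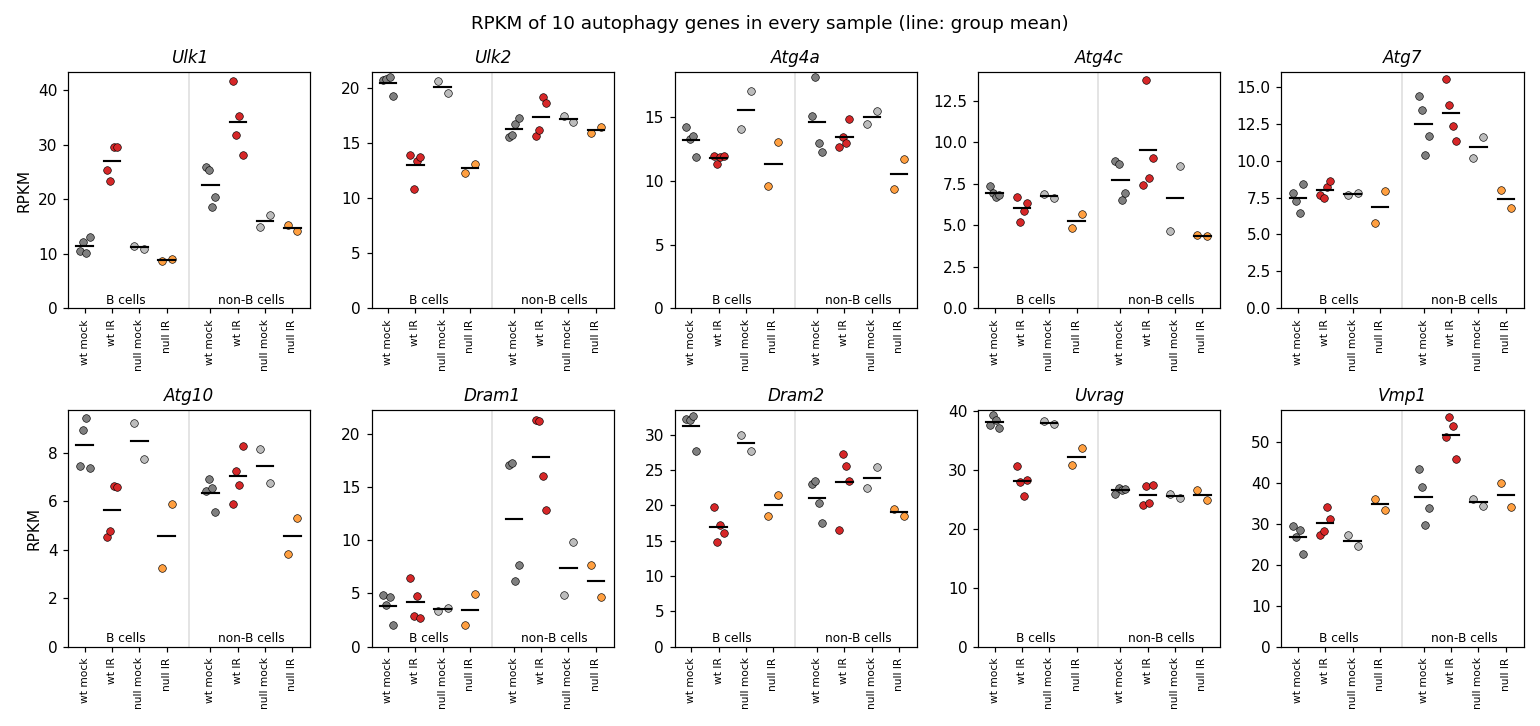
RPKM (vertical axis, from 0) of each of the 10 genes in all 24 samples, with mock samples in grey and irradiated samples in colour (red for wild-type, orange for null). Points are samples and lines are group means. Ulk1 stands highest in irradiated wild-type cells of both types, while Ulk2, Dram2 and Uvrag stand lower in irradiated than in mock B cells of both genotypes.

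Ulk1 encodes the kinase that starts autophagosome formation. In wild-type B cells its RPKM was 10.6, 12.1, 10.2 and 13.2 in mock samples and 25.4, 23.3, 29.6 and 29.6 after IR. The groups did not overlap, and the means were 11.5 ± 1.39 and 27.0 ± 3.16 (SD, n = 4 each). The log2 difference was 1.19 (SE 0.10, limma adjusted p = 1.08e-06), and it lay between 1.07 and 1.34 under the alternatives other than leaving out a sample. Null B cells had Ulk1 at 11.5 and 10.9 in mock and at 8.64 and 9.08 in irradiated samples. These were lower after IR by a log2 difference of -0.32 (95% interval -0.63 to -0.01), which missed the threshold (limma adjusted p = 0.093). The difference between the genotypes' responses was itself tested and was called, at 1.51 (SE 0.17, limma adjusted p = 1.0e-04), in a comparison in which 12% of the genes tested were called (6.56% higher and 5.43% lower in the wild type). Without the libraries over 15% receptor share it was 1.65 (limma adjusted p = 0.0014).

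The RPKM of Ulk1 in wild-type non-B cells was 25.9, 25.4, 18.5 and 20.5 in mock samples and 41.7, 31.8, 35.3 and 28.1 after IR. Again the lowest irradiated sample lay above the highest mock sample. The means were 22.6 ± 3.65 and 34.2 ± 5.78 (SD, n = 4 each), a log2 difference of 0.59 (SE 0.14, limma adjusted p = 0.013), close to the threshold of 0.58. This call rested on single libraries, since Ulk1 no longer passed without mock replicate 3 (0.50) or 4 (0.55), or without irradiated replicate 1 (0.49) or 3 (0.57). With the receptor level as a covariate Ulk1 was at 0.63 (limma adjusted p = 0.19), and without the libraries over 15% receptor share at 0.50 (limma adjusted p = 0.21). Cell markers moved beside this rise: from mock to irradiated wild-type non-B cells, the median summed RPKM of 7 myeloid markers went from 515.6 to 667.9, that of 7 erythroid markers from 207.3 to 32.6 and that of 8 B cell markers from 459.4 to 319.7. The median T cell sum went from 465.4 to 384.2, that of NK cells from 292.3 to 294.1 and that of megakaryocytes from 81.84 to 91.15. Mock replicates 1 and 2, which were higher for Ulk1 than replicates 3 and 4, had higher myeloid and erythroid sums and lower sums of the other lists. In null non-B cells, the medians went from 521.9 to 512.5 (myeloid), 143.7 to 80.56 (erythroid) and 429.7 to 500.2 (B cell). There they also went from 582.1 to 582.7 (T cell), 334.9 to 239.7 (NK) and 55.46 to 21.04 (megakaryocyte). The part of these shifts in the Ulk1 levels was not tested. Null non-B cells had Ulk1 at 14.99 and 17.1 in mock and 15.3 and 14.1 in irradiated samples, which overlap. The Ulk1 response was higher in wild-type than in null non-B cells by 0.71 (95% interval 0.19 to 1.22), which did not pass (limma adjusted p = 0.088).

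Ordered by mean level, Ulk1 was lowest in irradiated null B cells (8.86), followed by mock null B cells (11.2), mock wild-type B cells (11.5), irradiated null non-B cells (14.7), mock null non-B cells (16.1), mock wild-type non-B cells (22.6), irradiated wild-type B cells (27.0) and irradiated wild-type non-B cells (34.2). Samples of neighbours in this order overlapped between both mock B cell groups, between both null non-B groups, and between irradiated wild-type B cells and each of the groups next to them. Ulk1 was the only member higher after IR in wild-type cells of both types by the test. The genes whose log2(RPKM + 0.5) followed that of Ulk1 most closely over the 24 samples, of 13241 genes tested in both cell types, were N4bp1 (Pearson r = 0.976), Slc35e4 (r = 0.960) and Ppp1r13l (r = 0.951). N4bp1 had a mean RPKM of 21.5 in mock and 39.3 in irradiated wild-type B cells, and of 19.4 and 20.4 in null B cells. Ppp1r13l was at 0.084 to 0.233 in mock and 1.085 to 1.853 in irradiated wild-type B cells. It passed the filter of the B cell fit only through the latter, so its place here is no separate support. The 24 samples share cell types and treatments, so that these correlations only describe the pattern.

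Ulk2, the paralogue of Ulk1, fell in B cells of both genotypes. Its RPKM was 20.7, 20.8, 20.9 and 19.2 in mock and 13.9, 10.8, 13.4 and 13.7 in irradiated wild-type B cells. In null B cells it was 20.6 and 19.5 in mock and 12.3 and 13.1 in irradiated samples. Mock and irradiated samples were apart in both genotypes. The log2 difference of Ulk2 was -0.64 (SE 0.08, limma adjusted p = 3.6e-05) in wild-type and -0.64 (SE 0.11, limma adjusted p = 0.00082) in null B cells, and the difference between them was -7.8e-05, with a 95% interval of -0.31 to 0.31 (0.05 without the libraries over 15% receptor share). In the wild type this value lies near the threshold, and Ulk2 was at -0.56 without irradiated replicate 2 and at -0.55 with the receptor covariate, neither of which is called. Non-B cells of the wild type had Ulk2 at 15.5, 15.7, 16.7 and 17.2 in mock and 15.7, 16.2, 19.1 and 18.6 in irradiated samples, which overlap, with a log2 difference of 0.09 (95% interval -0.10 to 0.27), or -0.01 without the libraries over 15% receptor share.

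**Figure D2:**
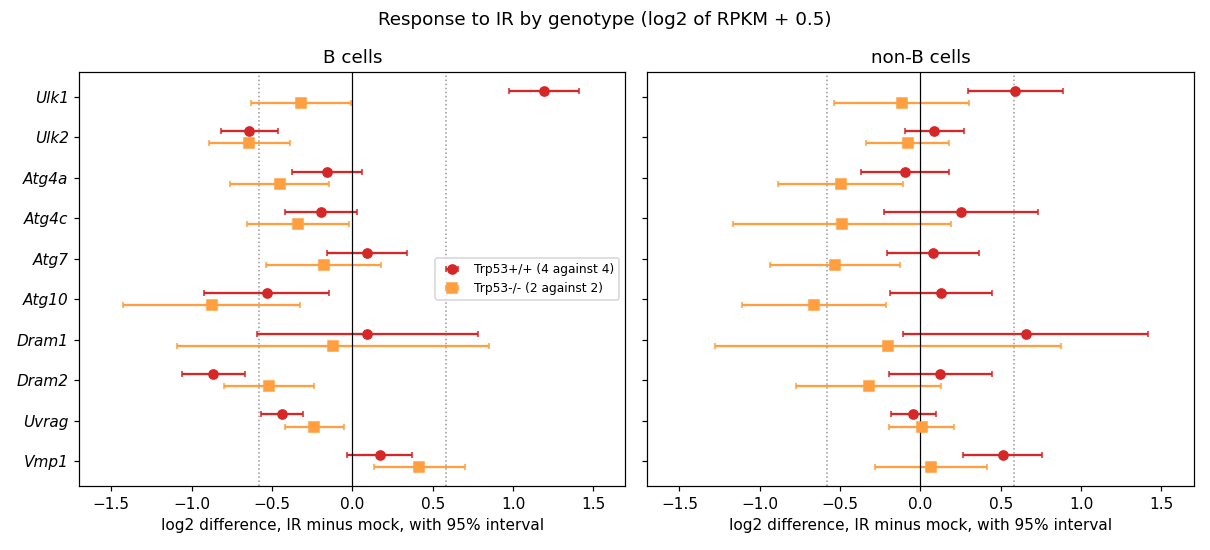
Log2 difference between irradiated and mock samples (horizontal axis, on the log2(RPKM + 0.5) scale) for each gene, in B cells (left) and non-B cells (right), with wild-type as red circles and null as orange squares. Bars are 95% intervals from limma and dotted lines mark 0.58 in either direction. The genotypes stand apart for Ulk1 in B cells (1.19 and -0.32) and coincide for Ulk2 (-0.64 each).

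Atg4a and Atg4c encode cysteine proteases that trim Atg8 proteins before their attachment and release them from membranes. Neither was called in any of the 4 comparisons of IR with mock. Atg4a had an RPKM of 14.2, 13.2, 13.5 and 11.9 in mock and 11.95, 11.3, 11.9 and 11.9 in irradiated wild-type B cells. These overlap, with a log2 difference of -0.16 (95% interval -0.37 to 0.06). In null B cells, Atg4a was at 14.1 and 17.1 in mock and 9.62 and 13.02 in irradiated samples, a log2 difference of -0.45 that had a limma adjusted p of 0.022 but stayed under the fold threshold. In null non-B cells Atg4a stood at -0.50 (limma adjusted p = 0.20).

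Atg4c was the less abundant protease in every group, with mean RPKM values between 4.38 and 9.54, against 10.5 to 15.6 for Atg4a. In wild-type B cells, Atg4c was at 7.38, 6.93, 6.68 and 6.80 in mock and 6.68, 5.19, 5.89 and 6.33 in irradiated samples, with the highest irradiated sample just under the lowest mock one. The log2 difference of Atg4c was -0.20 (95% interval -0.42 to 0.03, limma adjusted p = 0.13). In irradiated wild-type non-B cells, replicate 2 had an Atg4c RPKM of 13.8 while the other three lay between 7.45 and 9.07, and the log2 difference was 0.25 (95% interval -0.22 to 0.73). Replicate 2 is the irradiated library left without those over 15% receptor share, and there Atg4c was at 0.80 (limma adjusted p = 0.21), against 0.89 with the receptor covariate (limma adjusted p = 0.16).

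Atg7 is the E1-like enzyme that activates both ubiquitin-like proteins of the pathway, and Atg10 is the E2-like enzyme that passes Atg12 on to Atg5. Atg7 was not called in wild-type B cells, at 7.79, 7.29, 6.46 and 8.40 in mock and 7.65, 7.44, 8.201 and 8.65 in irradiated samples, with a log2 difference of 0.09 (95% interval -0.16 to 0.34). Its levels in wild-type non-B cells were 14.4, 13.4, 10.4 and 11.7 in mock and 15.5, 13.7, 12.3 and 11.3 in irradiated samples, a log2 difference of 0.08 (95% interval -0.21 to 0.37), or 0.14 without the libraries over 15% receptor share. In null non-B cells, Atg7 was at 10.2 and 11.6 in mock and at 8.02 and 6.77 after IR, a log2 difference of -0.53 (limma adjusted p = 0.19).

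Atg10 had an RPKM of 7.43, 8.95, 9.44 and 7.38 in mock and 4.52, 4.79, 6.64 and 6.57 in irradiated wild-type B cells. All irradiated samples lay under all mock samples. The log2 difference of -0.53 (SE 0.18, limma adjusted p = 0.025) stayed under the fold threshold. Without the libraries over 15% receptor share it was -0.29 (limma adjusted p = 0.44). Atg10 fell in null B cells, from 9.22 and 7.75 in mock to 3.24 and 5.87 in irradiated samples, by a log2 difference of -0.88 (SE 0.25, limma adjusted p = 0.015). This call was lost without mock replicate 1 (-0.76, limma adjusted p = 0.10) or without irradiated replicate 1 (-0.49, limma adjusted p = 0.17). Wild-type and null responses of Atg10 differed by 0.34 (95% interval -0.33 to 1.02), by 0.58 without those libraries, and by -0.04 without null irradiated replicate 1. Atg10 was the member with the fewest reads, an estimated 35.6 in its lowest library and 90.1 at the median.

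Dram1 and Dram2 encode related membrane proteins of lysosomes. Dram1, known for its induction by p53, had the lowest level of the members in B cells and the widest spread relative to its mean among wild-type B samples (coefficient of variation 33.2% in mock and 42.0% in irradiated samples). Its RPKM was 4.84, 3.87, 4.66 and 2.04 in mock and 6.44, 2.88, 4.73 and 2.70 in irradiated wild-type B cells, which overlap, with a log2 difference of 0.09 (95% interval -0.60 to 0.78). Leaving out 1 sample gave values between -0.15 and 0.25, and was 0.33 without the libraries over 15% receptor share. Dram1 in wild-type non-B cells was at 17.0, 17.2, 6.19 and 7.67 in mock and at 21.2, 21.2, 16.04 and 12.8 in irradiated samples. The lowest irradiated samples lay within the mock range, and the log2 difference was 0.65 (95% interval -0.11 to 1.42, limma adjusted p = 0.20). It was 0.93 without the libraries over 15% receptor share and 1.30 with the receptor covariate (limma adjusted p = 0.42 and 0.24). In null non-B cells, Dram1 was at 4.85 and 9.86 in mock and 7.67 and 4.62 in irradiated samples.

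Among mock wild-type non-B samples, the levels of cell markers differed along with Dram1. Mock replicates 1 and 2, with Dram1 at 17.0 and 17.2, had a summed RPKM of 7 myeloid markers of 578.8 and 552.1 and of 7 erythroid markers of 303.9 and 288.1. Mock replicates 3 and 4, with Dram1 at 6.19 and 7.67, had myeloid sums of 444.3 and 479.1 and erythroid sums of 126.4 and 124. The other marker lists stood the other way, with summed T cell markers of 377.6 and 392.7 in replicates 1 and 2 against 547.1 and 538.1 in replicates 3 and 4, and lower B cell, NK cell and megakaryocyte sums in replicates 1 and 2. In irradiated wild-type non-B cells, the myeloid sum was 715.5, 745.6, 620.3 and 498.9 and the erythroid sum 70.6, 23.9, 27.3 and 37.8, so that the group with the highest mean of Dram1 had the lowest median erythroid sum. Among irradiated null samples, the one with the higher Dram1 (7.67 against 4.62) had the lower myeloid sum (499.1 against 526). All 7 markers of the myeloid list had a mean above an RPKM of 1 in these groups, and their part in the Dram1 levels was not tested. Fitted on replicates 1 and 2 alone, the log2 difference of Dram1 was 0.30, and on replicates 3 and 4 alone it was 1.01 (limma adjusted p = 0.56 and 0.099). These fits were chosen after seeing the data. The fit on replicates 1 and 2 holds the mock samples with the higher Dram1, so its smaller difference follows from the split and supports nothing further.

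**Figure D3:**
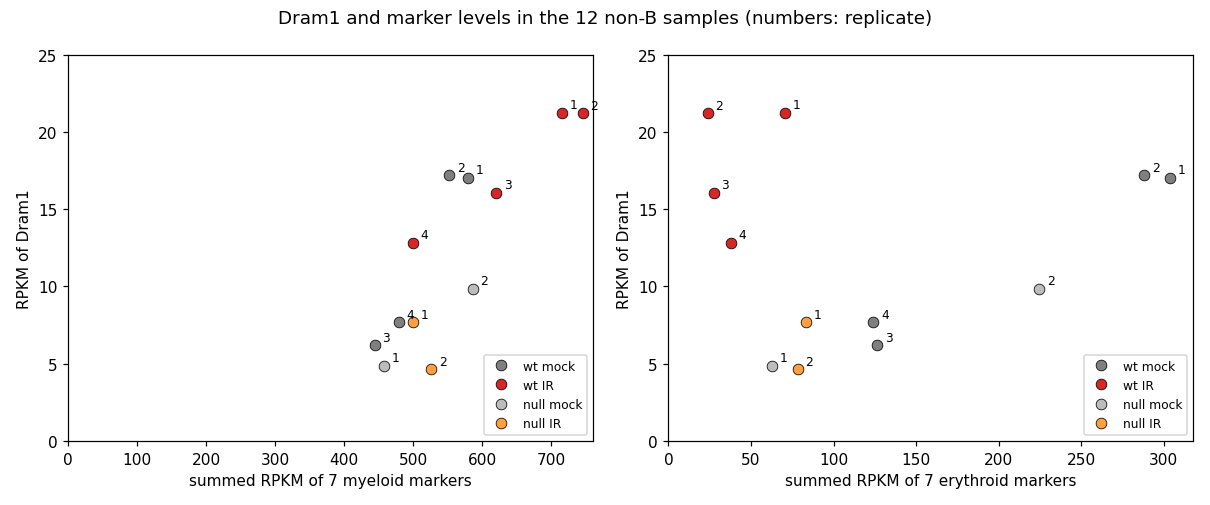
RPKM of Dram1 (vertical axis) against the summed RPKM of 7 myeloid (left) and 7 erythroid markers (right) in the 12 non-B samples, coloured by group and numbered by replicate. Wild-type mock replicates 1 and 2 stand at 17.0 and 17.2 and replicates 3 and 4 at 6.19 and 7.67, with the former higher for both marker sums.

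Dram2 had the largest fall among the members in wild-type B cells. Its RPKM was 32.3, 32.1, 32.6 and 27.7 in mock and 19.8, 14.8, 17.2 and 16.1 in irradiated samples, which did not overlap. The means were 31.2 ± 2.31 and 17.0 ± 2.14 (SD, n = 4 each), a log2 difference of -0.86 (SE 0.09, limma adjusted p = 7.6e-06). Dram2 kept this call under each alternative run. Dram2 in null B cells was at 29.99 and 27.8 in mock and 18.6 and 21.5 in irradiated samples, with a log2 difference of -0.52 (SE 0.13, limma adjusted p = 0.0066), under the fold threshold. The response in the wild type was lower than that in null cells by -0.35 (95% interval -0.69 to -0.00), which did not pass (limma adjusted p = 0.15). In wild-type non-B cells, Dram2 overlapped between mock (23.1, 23.4, 20.3 and 17.5) and irradiated samples (16.6, 27.4, 25.6 and 23.5), with a log2 difference of 0.12, or 0.38 without the libraries over 15% receptor share.

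Uvrag binds Beclin 1 in the lipid kinase complex that acts in membrane maturation, and it was the most abundant member in mock B cells. Its RPKM was 37.7, 39.4, 38.4 and 37.1 in mock and 30.7, 27.9, 25.5 and 28.4 in irradiated wild-type B cells. The samples did not overlap, and the log2 difference of -0.44 (SE 0.06, limma adjusted p = 7.3e-05) had a small error but a size under the fold threshold. In null B cells, Uvrag was at 38.3 and 37.8 in mock and 30.8 and 33.7 in irradiated samples, a log2 difference of -0.24 (limma adjusted p = 0.044). Uvrag in wild-type non-B cells lay between 25.9 and 26.9 in mock and between 24.1 and 27.4 in irradiated samples, with a log2 difference of -0.04 (95% interval -0.19 to 0.10), or 0.04 without the libraries over 15% receptor share.

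Vmp1 is a membrane protein of the endoplasmic reticulum needed for autophagosome formation. In wild-type non-B cells its RPKM was 43.3, 38.9, 29.6 and 33.9 in mock and 51.2, 56.0, 53.9 and 45.8 in irradiated samples. All irradiated samples lay above all mock samples. The log2 difference was 0.51 (SE 0.11, limma adjusted p = 0.011), under the fold threshold, and without mock replicate 1 it was 0.60 and was called. Without the libraries over 15% receptor share it was 0.63 and did not pass (limma adjusted p = 0.14). In null non-B cells, Vmp1 was at 36.1 and 34.4 in mock and 39.9 and 34.1 in irradiated samples, which overlap, and the difference between the genotypes' responses was 0.45 (95% interval 0.02 to 0.87, limma adjusted p = 0.18). In B cells, Vmp1 stood at 0.17 (95% interval -0.03 to 0.37) in wild-type (0.35 without the libraries over 15% receptor share) and 0.42 (95% interval 0.13 to 0.70, limma adjusted p = 0.022) in null cells, both under the fold threshold. Mir21a, a microRNA gene that overlaps Vmp1, was listed at 0 in all 24 samples. How reads overlapping both genes were assigned is not given in the sources used here, so this value says nothing of its expression.

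Counted by samples alone, irradiated and mock wild-type B cells did not overlap for 6 of the 10 members, with Ulk1 above and Ulk2, Atg4c, Atg10, Dram2 and Uvrag below. For each, the exact permutation test (two-sided) gave p = 0.0286, the smallest that 4 samples against 4 allow. Of all genes tested in B cells, 46.2% did not overlap, 22.9% with irradiated samples above and 23.3% below. In wild-type non-B cells, 2 of the 10 members did not overlap, Ulk1 and Vmp1, both above. Of all genes tested there, 22.1% did not overlap, 10% with irradiated samples above and 12.1% below. In null cells, a pair of samples against a pair cannot give an exact p under 0.333.

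Among null samples, limma called 2 of the 10 members after IR in B cells, Ulk2 and Atg10, both lower, where 24.3% of the genes tested were called (11.2% lower). The median log2 difference of the members was -0.33, against 0.02 over all genes, and 9 of the 10 were negative. Over all genes 51.4% were positive, and 13 of 48 other autophagy genes were. In null non-B cells, 0 members were called by limma, where 0.442% of all genes were called, and 3 of the 10 had an unadjusted p under 0.05 (Atg4a, Atg7 and Atg10), as did 15.9% of all genes. The genotype difference of the response was called for 1 member in B cells, Ulk1. The same test called 0 members in non-B cells, where 6.55% of all genes were called, and 4 of the 10 had an unadjusted p under 0.05 (Ulk1, Atg7, Atg10 and Vmp1), as did 25.3% of all genes.

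Between unstressed wild-type and null cells, limma called 0 members, where the share of all genes called was 0.0506% for B and 0.0428% for non-B cells. At an unadjusted p under 0.05, where 4.26% and 5.03% of all genes lay, B cells had 0 members and non-B cells 1, which was Ulk1, with a null minus wild-type log2 difference of -0.47 (95% interval -0.83 to -0.11, limma adjusted p = 0.84). The mock null samples of Ulk1, at 14.99 and 17.1, lay under all 4 mock wild-type non-B samples.

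Unstressed B and non-B cells of the wild type differed in 3 members, all lower in B cells. This comparison called 24.6% of 14598 genes (17.2% lower in B cells). The fit took B and non-B samples as independent, though both fractions may come from the same spleens. Their same-numbered deviations correlated at -0.049 to 0.350 in mock and -0.103 to 0.287 in irradiated samples. With a replicate block, 3 members (3615 genes) were called here and 4 (2794 genes) for the cell type difference of the response. Dram1 was lower in B cells by a log2 difference of -1.45 (SE 0.34, limma adjusted p = 0.0026), Ulk1 by -0.93 (SE 0.13, limma adjusted p = 2.8e-05) and Atg7 by -0.70 (SE 0.12, limma adjusted p = 0.00020). Atg7 was at -0.50 after quantile normalization and at -0.56 with the receptor covariate, neither of which is called. Dram2 (0.56), Uvrag (0.52) and Ulk2 (0.32) were at higher levels in B cells with an adjusted p under 0.05 but stayed under the fold threshold, and Vmp1 (-0.43) was likewise lower.

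The response to IR differed between wild-type B and non-B cells for 4 of the 10 members, in a test of the difference that called 18.8% of all genes (9.88% higher and 8.9% lower in B cells). Ulk1 responded more in B cells by 0.60 (SE 0.19, limma adjusted p = 0.024). The response of Dram2 was lower in B cells by -0.99 (SE 0.19, limma adjusted p = 0.0013), that of Ulk2 by -0.73 (SE 0.13, limma adjusted p = 0.00052) and that of Atg10 by -0.66 (SE 0.20, limma adjusted p = 0.023). The Ulk1 difference lost its call under 15 of 28 alternatives, among them both rescalings (0.56 and 0.50), and that of Atg10 under 4, among them the fit without the libraries over 15% receptor share (-0.48, limma adjusted p = 0.26). That of Dram2 lost it under 1, wild-type replicates 1 and 2 alone (-0.77, limma adjusted p = 0.11), and the Ulk2 difference was called under all 28. Without the libraries over 15% receptor share, Ulk1 stood at 0.83 (limma adjusted p = 0.082), and the differences of Atg4c and Uvrag, at -0.45 and -0.39 over all libraries, were called at -1.02 and -0.61 (limma adjusted p = 0.037 and 0.0067).

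Of 48 other autophagy genes, all found and tested, 10 (20.8%) were called after IR in wild-type B cells, against 24.7% of all genes, with 3 higher (Atg9b, Foxo3 and Wipi1) and 7 lower (Map1lc3a, Atg9a, Bnip3, Tfeb, Bnip3l, Stx17 and Gabarapl2). Of these, Atg9b passed the filter on low values only through irradiated wild-type samples. The median log2 difference of the 48 genes was -0.16. By role, 2 of the 8 genes of the Atg9 and lipid transfer group rose and 1 fell, 2 of the 5 Atg8 family genes and 2 of the 6 cargo receptors fell, and 0 of the 7 genes of the Vps34 lipid kinase complex and 0 of the 7 conjugation genes were called. In null B cells, 0 rose and 9 fell (18.8%, against 24.3% of all genes), and the median was -0.31. In wild-type non-B cells 0 of the 48 were called by limma, against 9.85% of all genes. Of the 48, 5 had an adjusted p under 0.05 and 9 an unadjusted one, as did 34.7% of all genes. For null non-B cells, limma called 0, against 0.442% of all genes, with 1 at an unadjusted p under 0.05, against 15.9% of all genes.

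Foxo3, a transcription factor that drives autophagy genes, had a higher level than any member in irradiated wild-type B cells. Its RPKM was 25.7, 26.1, 24.4 and 30.1 in mock and 63.9, 63.8, 68.1 and 68.9 after IR, and it fell in null B cells from 23.99 and 26.3 to 13.8 and 15.5. The log2 difference of Foxo3 was 1.304 (SE 0.07, limma adjusted p = 2.8e-08) in wild-type and -0.76 in null B cells, and the difference between them was 2.06 (limma adjusted p = 3.9e-07). In non-B cells the genotypes differed by 0.80 for Foxo3 (limma adjusted p = 0.0096), the only one of the 48 called there (2.08%, against 6.55% of all genes). The genotype difference in B cells was called for 3 of the 48 (6.25%, against 12% of all genes).

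Atg9b, a lipid scramblase of autophagic vesicles, was close to the detection limit in mock wild-type B cells, at 0.224, 0.055, 0 and 0.080, and reached 1.45, 0.853, 2.35 and 2.44 after IR. With a transcript of 2 kb, 1 read corresponds to an RPKM of 0.046 to 0.108 here. On the log2(RPKM + 0.5) scale, which understates the change of low genes, the difference of Atg9b was 1.89 (SE 0.26, limma adjusted p = 6.5e-05). Atg9b exceeded an RPKM of 1, and so passed the filter of the B cell fit, only in irradiated wild-type samples. Its call is therefore no separate support for a rise. Map1lc3a, one of the Atg8 family, fell from 9.97, 8.40, 10.2 and 8.53 to 5.20, 3.02, 4.03 and 3.74 in wild-type B cells and from 9.49 and 9.63 to 2.94 and 5.11 in null B cells. Its log2 difference was -1.14 in wild-type and -1.20 in null cells, with a difference between them of 0.06 (95% interval -0.59 to 0.71).

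**Figure D4:**
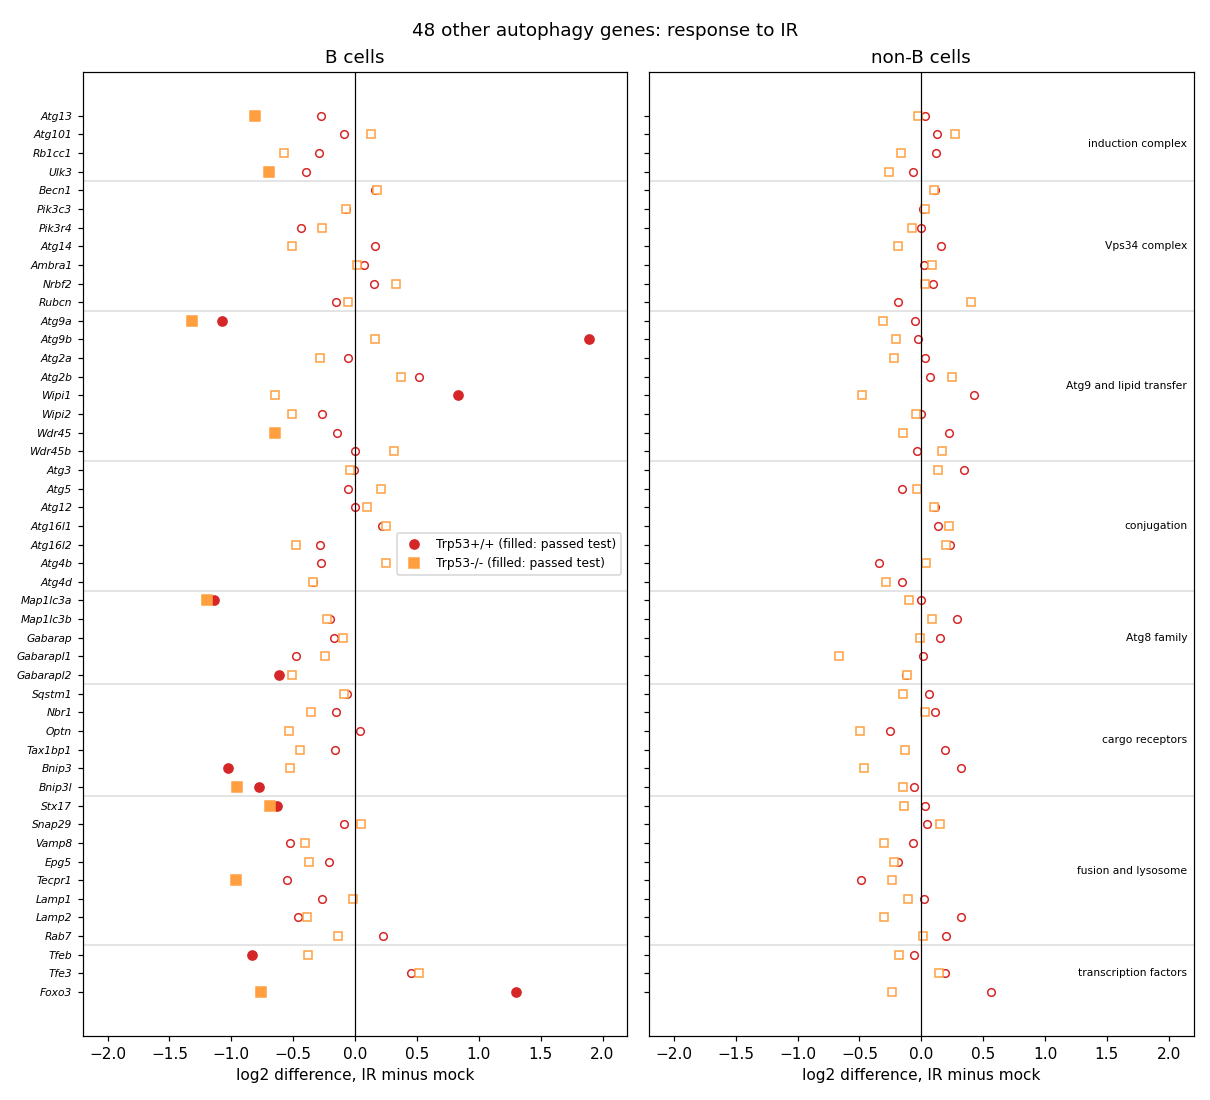
Log2 difference between irradiated and mock samples (horizontal axis, on the log2(RPKM + 0.5) scale) for 48 other autophagy genes grouped by role, in B cells (left) and non-B cells (right). Red circles are wild-type and orange squares null, and filled symbols passed the test. In B cells 10 wild-type and 9 null points are filled, and in non-B cells 0.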

How the data were processed

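Splenic RNA was depleted of ribosomal RNA and made into libraries with a kit that does not mark strand, so that reads of overlapping genes on opposite strands cannot be told apart. The authors used TopHat for alignment to mm9 and dropped all but 1 of any duplicated reads, which limits the values of abundant genes (highest RPKM per sample 157 to 307), counted reads per gene with featureCounts (1.4.5 in the submitters' processing notes) and deposited RPKM per gene, in 1 table per sample. The notes give TopHat2 2.0.8. Counts were not analysed here.

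RPKM values were tested with limma 3.58.1 (R 4.3.3; lmFit, eBayes with trend) on log2(RPKM + 0.5), with group means, in 12 B cell, 12 non-B cell and 16 wild-type samples, after removing genes that exceeded an RPKM of 1 in no wild-type sample. P-values were adjusted over all genes tested (Benjamini-Hochberg), and genes were called at an adjusted p under 0.05 and a log2 difference above 0.58. Single values were compared by exact permutation (scipy 1.17.1). The members and the lists were chosen with earlier results of these data known, by a rule that named all members, 3 label checks, the 3 other autophagy genes most changed among those called in wild-type cells of each type, and the 3 genes closest to any member called upward in both cell types. The test was checked on simulated data. Depth was estimated from the steps that single reads leave in low values, with exon lengths for 91.9% of genes, and 57.8% to 74.4% of the values used fell within 0.1 of a whole read, too few to recover counts. Alternatives were 10 planned and 2 chosen after seeing the data (wild-type replicates 1 and 2, or 3 and 4, alone), besides leaving out each sample. Replicate numbers are shared between groups. Deviations of same-numbered mock and IR wild-type non-B samples correlated in all 4 pairs (r = 0.156 to 0.323). However, 2 of the 4 correlated best with their own number, and differently numbered pairs reached 0.314. By the study's methods, mock spleens came from a control cohort, so a shared number is not a shared animal. The main fit used no pairing, and the fit with the replicate block called the same number of members, 1.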

Additional observations from a re-analysis of the deposited data

Results flagged for a closer look

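In 4 of the 40 groups of 4 wild-type samples, the lowest sample lay far from the other three by Dixon's test, a rule that chance meets in about 1 in 20 groups. These were an RPKM of 19.2 for Ulk2 in mock B cells (replicate 4), 10.8 for Ulk2 in irradiated B cells (replicate 2), 11.3 for Atg4a in irradiated B cells (replicate 2) and 27.7 for Dram2 in mock B cells (replicate 4).

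The response to IR differed between genotypes in B cells for Ulk1, by a log2 difference of 1.51. It differed between wild-type B and non-B cells, as B minus non-B, by 0.60 for Ulk1, -0.73 for Ulk2, -0.66 for Atg10 and -0.99 for Dram2. Each of these was called in a limma fit across all genes. Of all genes, 12% were called for the genotype difference in B cells and 18.8% for the cell type difference. The cell type difference lost its call under 15 of 28 alternatives for Ulk1, 4 for Atg10 and 1 for Dram2.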

How the results depend on the processing

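Over all members, comparisons and settings, 2326 values kept their sign and side of the threshold, 86 changed sign without being called in either fit (in 33 of the 100 pairs of member and comparison), 36 lost and 32 gained the call, and 0 reversed a called value. The number of members called moved as follows. Without the log2 threshold it was 5 (from 3) in wild-type B cells and 2 (from 1) in wild-type non-B cells. With the same setting it was 6 (from 2) in null B cells and 7 (from 3) between B and non-B cells. Over all genes, this setting called 7084 of 13821, 2615 of 14018, 5547 of 13821 and 5991 of 14598, in the same order. In wild-type non-B cells it was 0 with a pseudocount of 1, with the receptor covariate, without the libraries over 15% receptor share and in replicates 1 and 2 alone, and 2 in replicates 3 and 4 alone. Over all genes, the calls there were 1251 with a pseudocount of 1 and 320 with the receptor covariate. They were 1498 in replicates 1 and 2 alone and 1016 in replicates 3 and 4 alone. The cell type difference of the response was called for 2 members (from 4) in either pair of replicates, where 2546 and 2662 genes were called. By a 1.5-fold rule for dependence on p53 in place of the tested difference, Ulk1 counted in non-B cells too, 1 against 0. Leaving out 1 sample gave 2 to 4 members in wild-type B cells (3241 to 3518 of all genes) and 0 to 2 in wild-type non-B cells (918 to 1425). It gave 1 to 4 in null B cells (2610 to 3880) and 2 to 4 for the cell type difference (2459 to 2916). Between B and non-B cells it gave 3 to 4 (3297 to 3771).

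Over all genes, the calls in wild-type non-B cells went from 1381 to 320 with the receptor covariate, 321 without the libraries over 15% and 2615 without the log2 threshold, and those of the genotype difference in non-B cells from 918 to 270 with this covariate and 191 without these libraries. Leaving out 1 sample moved the calls in wild-type non-B cells to 918 (without irradiated wild-type replicate 3), those of the genotype difference in non-B cells to between 306 and 1144, with 580 without that library, 530 and 341 without null mock replicates 1 and 2, and 306 and 532 without null irradiated replicates 1 and 2, and those of the genotype difference in B cells to 1060 and 1073 without replicate 1 of the null mock and null irradiated samples. The 62 calls in null non-B cells became 0 to 49, with at most 10 when any 1 of the 4 null libraries was left out and 16, 37, 38 and 22 without wild-type mock replicates 2, 3 and 4 and irradiated replicate 3. Between unstressed genotypes, the 7 in B cells became 13 without wild-type mock replicate 4, and the 6 in non-B cells 3 without null mock replicate 1. Without the log2 threshold, there were 7084 calls (from 3415) in wild-type B cells, 5547 (from 3355) in null B cells, 2594 (from 1656) for the genotype difference in B cells and 5991 (from 3587) between B and non-B cells. The cell type difference gave 1749 (from 2742) without the libraries over 15%. In null non-B cells, 62 calls became 24 after quantile normalization, 0 without the libraries over 15%, 17 with the replicate block and 24 with wild-type replicates 1 and 2 alone. Between unstressed genotypes, 7 became 13 in B cells and 6 became 49 in non-B cells with those replicates, and the latter became 3 with replicates 3 and 4 alone and 11 with the block. Quantile normalization moved the share of calls that were higher in B than in non-B cells from 30.02% to 50.7%. The cause was not tested. The replicate block changed no count of members called by over 1.5 times, giving 3 in wild-type B cells, 1 in wild-type non-B cells and 2 in null B cells. Same-numbered mock and IR wild-type B samples correlated at 0.015 to 0.087, and 3 of 4 correlated best with their own number. Depth limits Atg10 and Dram1 most, with an estimated 35.6 and 40.6 reads in their lowest libraries.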
